A study of Mus musculus with 12 samples.

Results

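The genes described here are those of the proteasome and of the major histocompatibility complex (MHC) antigen presentation pathway in mouse liver RNA-seq. They were taken as every row of the deposited table whose symbol starts with Psm and a family letter from a to g, or with H2-, or is B2m, Tap1, Tap2, Tapbp, Tapbpl, Erap1, Cd74 or Nlrc5. The rule used no expression value. It found 28 of the 3799 rows, of which 17 were proteasome genes and 11 were MHC pathway genes. The table is a selection of genes that the authors made from these libraries, and its name labels them DEG, for differentially expressed genes. Every share of rows and every adjusted p given here refers to that selection. If rows were kept for differing between these groups, p-values computed on the same values are too small, and the calls are too many. The immunoproteasome genes Psmb8, Psmb9 and Psmb10, the Psma genes, Tap1, Erap1, Cd74, H2-K1 and H2-D1 were not analysed here, and a ratio of immunoproteasome to constitutive subunits could not be computed.

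The livers came from C57BL/6J mice, described in the study's methods as males of 8 weeks, in 4 groups of 3 libraries. Saline mice had no doxorubicin, and the other groups had an intraperitoneal dose of 10 mg/kg doxorubicin at day 0 and again at day 7. Doxorubicin is a DNA-damaging chemotherapy drug that the study used as a model of premature aging. From day 2, every other day, DOX mice were given vehicle by mouth, DOX + K35 mice 50 mg/kg of K35, and DOX + K27 mice 50 mg/kg of its analog K27. Livers were taken at day 20, and those of the Saline group are labelled vehicle. No group received a compound without doxorubicin. Columns are named by library code, A for Saline, B for DOX, C for DOX + K35 and D for DOX + K27, and 'with K35' or 'with K27' stands for a DOX + compound group where 12 values are listed. Values are listed in the order A1, A2, A3, then B1, B3, B4, then C1, C2, C4, then D1, D2, D3.

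The proteasome is the cell's main protease for ubiquitin-tagged proteins. Its 20S barrel holds the cutting sites, and the 19S cap binds, unfolds and feeds in the substrate with ATP. Peptides that it releases are pumped into the endoplasmic reticulum by the TAP transporter and placed with the help of tapasin on MHC class I heavy chains paired with beta-2-microglobulin, which carry them to the surface for CD8+ T cells. Hepatocytes express class I molecules, whereas class II molecules belong mostly to professional antigen-presenting cells such as macrophages, dendritic cells and B cells.

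Libraries A3, C4 and D3 stood apart within their groups by the Pearson correlation of log2 values. A3 was at 0.9505 and 0.9584 with A1 and A2, which were at 0.9885 with each other. C4 was at 0.9455 and 0.9367, against 0.992 for C1 with C2. D3 was at 0.9686 and 0.9693, against 0.9902 for D1 with D2. In DOX, B3 was at 0.9762 with B1 and 0.9732 with B4, and B1 was at 0.9374 with B4. Mitochondrially encoded genes took between 37.9% of the summed FPKM (fragment counts scaled to transcript length and library size) in C1 and 83.3% in B4, and their group means were 52.95% in Saline, 73.6% in DOX, 42.05% with K35 and 57.2% with K27. The files give no read counts, so the depth is unknown. Of the 14 hepatocyte markers listed, 7 were in the table, with a summed level of 11252 to 12866 FPKM in Saline, 6974 to 14307 in DOX, 12899 to 13804 with K35 and 13929 to 15519 with K27. All 9 Kupffer cell or macrophage markers in the table, of 14 listed, were lower in every DOX library than in every Saline library. Of all rows tested, 35.3% did not overlap between these groups in either direction. The summed level of the 9 markers was 109 to 286 FPKM in Saline, 32.3 to 82.2 in DOX, 79.8 to 129 with K35 and 82.6 to 141 with K27. None of 13 T or NK cell markers and 1 of 11 dendritic or B cell markers, Cd79b, were among the rows. In a bulk sample, fewer cells of a type and less RNA per cell cannot be told apart.

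In DOX + K35 livers most proteasome genes rose against DOX. Of the MHC genes, Tapbpl and Tapbp, which help to load peptides, rose, and the heavy chain gene H2-Q5 and the class I regulator Nlrc5 fell. Of 17 proteasome genes, 15 were higher in DOX + K35 than in DOX by limma with Benjamini-Hochberg adjustment over all 3317 rows tested, and none was lower. Of 10 MHC genes tested, 2 were higher and 2 were lower. By the same test 46.0% of all rows tested were higher, 10.7% were lower and 56.8% were called in either direction, so the proteasome count is to be read against a table in which many rows rose. The median log2 fold change was 1.29 for the proteasome genes, -0.46 for the MHC genes and 0.46 for all rows tested. Fold changes throughout are on the log2(FPKM + 1) scale, which understates the change of low genes. A called gene is one with an adjusted p under 0.05. In 14 proteasome genes all DOX + K35 libraries were above all DOX libraries, against 44.3% of all rows, and in 5 MHC genes all were below, against 15.4%. The hepatocyte markers moved with the proteasome genes. In this comparison 6 of the 7 were called higher (Cps1, Cyp2e1, Cyp3a11, Tdo2, Tat and Hpd, but not Apoa1), with a median of 1.52. Of the 9 Kupffer cell or macrophage markers 5 were called higher, with a median of 0.72. The part of either cell type in the proteasome and MHC results was not tested.

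**Figure D1:**
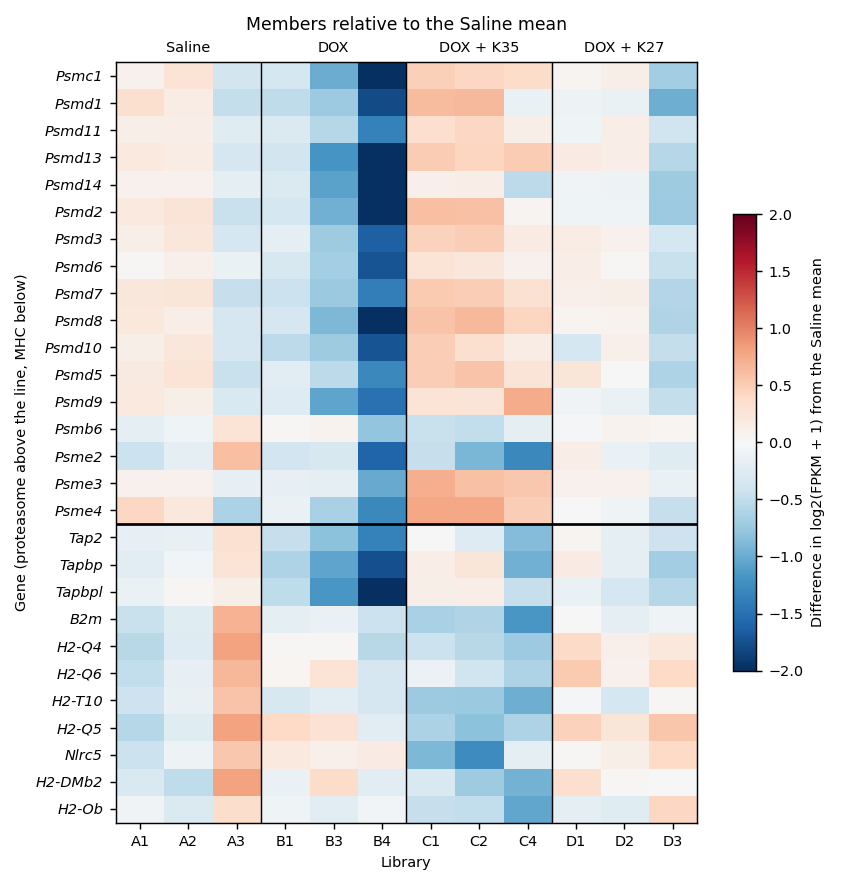
Difference in log2(FPKM + 1) of each of the 28 genes (rows) from its Saline mean in each library (columns, 4 groups of 3), with proteasome genes above the thick line and MHC genes below it; colours stop at 2 in either direction. The upper block is mostly blue in DOX and red in DOX + K35, Psmb6 and Psme2 excepted, whereas the class I rows of the lower block are blue in DOX + K35.

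The 19S cap was represented by 10 subunits. Psmc1 is an ATPase of the base, Psmd1 and Psmd2 are the large scaffold subunits of the base, Psmd14 is the deubiquitinase that removes ubiquitin chains, and Psmd3, Psmd6, Psmd7, Psmd8, Psmd11 and Psmd13 belong to the lid. All 10 were called higher in DOX + K35 than in DOX, with log2 fold changes of 1.02 to 1.73. Their median was 1.34. Psmd13 (chr7:140881968-140898643, GENCODE M21 on GRCm38) was at 24.7, 23.9 and 16.9 FPKM in Saline, 16.5, 8.99 and 3.81 in DOX, 30.9, 29.2 and 30.9 with K35 and 24.3, 23.6 and 14.3 with K27. The DOX + K35 libraries lay close together and above all others, whereas the DOX libraries spread widely, with B4 lowest. The log2 fold change of Psmd13 against DOX was 1.73 (SE 0.39, 3.32-fold, limma adjusted p = 0.0057). Of the 100-base windows of the longest Psmd13 transcript, 12.9% also occur in Sirt3, which overlaps Psmd13 on the opposite strand. The library kit did not mark strand, so reads from these windows cannot be told apart. Psmd8 (chr7:29174188-29180701) was at 40.2, 38.1 and 27.4 FPKM in Saline, 27.4, 18.1 and 7.43 in DOX, 51.9, 54.8 and 47.1 with K35 and 36.1, 36.5 and 22.6 with K27. It rose in DOX + K35 by 1.65 on the log2 scale (SE 0.39, limma adjusted p = 0.0058). Psmc1 (chr12:100110154-100123405) was at 41.5, 47.7 and 30.1 FPKM in Saline, 30.4, 19.2 and 9.06 in DOX, 54.8, 52.4 and 50.6 with K35 and 40.8, 42.3 and 23.7 with K27. Its rise in DOX + K35 was 1.53 (SE 0.39, limma adjusted p = 0.0067), and the lowest DOX + K35 library lay above the highest library of every other group.

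Psmd1 (chr1:86064387-86139151) was at 27.1, 24.02 and 15.2 FPKM in Saline, 14.8, 12.6 and 5.49 in DOX, 33.99, 34.2 and 19.6 with K35 and 20.03, 19.4 and 10.4 with K27. Library C4 was well below C1 and C2 but still above the highest DOX library, and the log2 fold change was 1.40 (SE 0.39, limma adjusted p = 0.0087). Psmd14 (chr2:61711694-61800376) was at 26.5, 26.5 and 21.8 FPKM in Saline, 20.1, 11.3 and 4.35 in DOX, 26.9, 27.5 and 17.03 with K35 and 23.7, 23.1 and 14.8 with K27. It was the only 19S subunit whose DOX + K35 and DOX libraries overlapped, since C4 lay below B1. Its rise of 1.12 (SE 0.41, limma adjusted p = 0.03) was called in 12 of 21 other settings, fewer than for any other called proteasome gene. The remaining called fold changes of this set were 1.54 for Psmd2, 1.29 for Psmd7, 1.22 for Psmd3, 1.11 for Psmd6 and 1.02 for Psmd11. Among these, Psmd3, Psmd6 and Psmd11 lost the call when each library was rescaled with the 20 highest rows left out, and Psmd6 and Psmd11 also under quantile normalization.

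Psmd5, Psmd9 and Psmd10 are chaperones that help to assemble the 19S base and are not part of the finished particle. They were the lowest proteasome genes, with means over all libraries of 4.04 FPKM for Psmd10, 4.44 for Psmd5 and 7.79 for Psmd9. All 3 were called higher in DOX + K35 than in DOX. Psmd9 (chr5:123169413-123250131) was at 9.57, 9.05 and 6.52 FPKM in Saline, 6.74, 3.47 and 2.29 in DOX, 10.2, 10.1 and 14.6 with K35 and 7.84, 7.47 and 5.67 with K27. Its highest library was C4, and it had the smallest p of all members, with a log2 fold change of 1.36 (SE 0.30, limma adjusted p = 0.0056). The GENCODE span of Psmd9 overlaps the hepatocyte gene Hpd on the opposite strand, and the library kit did not mark strand. The longest Psmd9 transcript shares no stretch of 100 bases with Hpd or any other gene. Reads from any other stretch that the pair shares cannot be told apart. Psmd10 (chrX:140948429-140956728), also known as gankyrin, was at 4.95, 5.45 and 3.35 FPKM in Saline, 2.82, 2.35 and 0.672 in DOX, 6.76, 5.87 and 5.10 with K35 and 3.31, 4.89 and 2.94 with K27. The DOX + K35 libraries lay above all DOX libraries, and the log2 fold change was 1.31 (SE 0.29, limma adjusted p = 0.0056). Psmd5 rose by 1.12 (limma adjusted p = 0.0079).

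The activators open the 20S barrel in place of the 19S cap, and the 3 in the table did not move alike. Psme4 (chr11:30771726-30880361), or PA200, which is known for the degradation of acetylated histones, was at 11.6, 10.05 and 5.15 FPKM in Saline, 7.64, 5.08 and 2.88 in DOX, 15.2, 15.3 and 12.4 with K35 and 8.57, 7.93 and 5.88 with K27. Psme3 (chr11:101316213-101323537), or PA28 gamma, a nuclear activator, was at 12.6, 12.7 and 10.6 FPKM in Saline, 10.5, 10.4 and 5.43 in DOX, 20.3, 18.5 and 17.8 with K35 and 12.7, 12.7 and 10.8 with K27. In both genes, as in Psmc1 and Psmd13, every DOX + K35 library was above every library of the other 3 groups. The share of all rows with this pattern was not counted. Every DOX + K35 library was above every DOX library in 44.3% of all rows and above every DOX + K27 library in 30.6%. Against DOX, Psme4 rose by 1.37 (SE 0.32, limma adjusted p = 0.0058) and Psme3 by 1.07 (SE 0.26, limma adjusted p = 0.0061). Psme2 (chr14:55587441-55591113), or PA28 beta, the interferon-inducible partner of Psme1 that is linked to antigen processing, was at 49.99, 59.5 and 103 FPKM in Saline, 51.3, 53.6 and 21.5 in DOX, 48.8, 35.5 and 27.1 with K35 and 73.9, 61.4 and 57.00 with K27. Its DOX and DOX + K35 libraries overlapped, and the log2 fold change was -0.11 (95% interval -0.96 to 0.74). Of the 100-base windows of its longest transcript, 44.5% also occur in its near-copy Psme2b, so its level is uncertain.

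Psmb6 was the only member of the 20S barrel. It encodes the constitutive caspase-like subunit that the immunoproteasome replaces by Psmb9. Psmb6 (chr11:70525367-70527858) was at 96.7, 104 and 134 FPKM in Saline, 112, 115 and 63.1 in DOX, 80.97, 78.5 and 96.97 with K35 and 109, 116 and 113 with K27. It was the proteasome gene with the highest level, and the libraries of all 4 groups overlapped except for DOX + K35 and DOX + K27. Its log2 fold change between DOX + K35 and DOX was -0.13 (95% interval -0.81 to 0.54, limma adjusted p = 0.72), an interval whose upper end is below the fold change of all 10 subunits of the 19S cap. Under 3 of 21 other settings, all of which rescale the libraries or remove a length trend, Psmb6 was called lower.

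Because a ratio within a library does not depend on how that library was scaled, the 12 Psmd genes were also summed and divided by Psmb6. Per 100 FPKM of Psmb6, the summed Psmd level was 297, 278 and 151 in Saline, 179, 120.3 and 103 in DOX, 437, 453 and 299 with K35 and 241, 223 and 149 with K27. Both C1 and C2 lay above all other libraries, and C4 lay just above A1. Saline library A3 and DOX + K27 library D3, with mitochondrial shares of 61.9% and 68.0%, lay below DOX library B1, with 62.2%. The means were 242 ± 79.4 in Saline, 134 ± 39.97 in DOX, 396 ± 84.6 with K35 and 204 ± 49.1 with K27 (SD, n = 3). The ratio is given without a test. The exonic length of Psmb6 is 1872 bases, against a median of 4374 over the tested rows. With the trend of each library on exonic length removed, an alternative chosen after seeing the data, Psmb6 was at -0.68 and 14 of the other proteasome genes were still called higher.

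**Figure D2:**
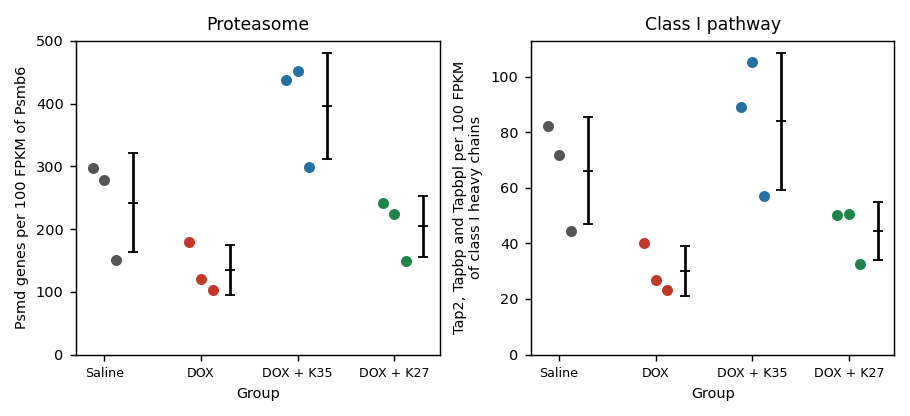
Left, summed FPKM of the 12 Psmd genes per 100 FPKM of Psmb6; right, summed FPKM of Tap2, Tapbp and Tapbpl per 100 FPKM of the class I heavy chain rows H2-Q4, H2-Q5, H2-Q6 and H2-T10. Points are libraries and bars the mean ± SD of 3; both ratios were lowest in DOX, where no library exceeded 179 on the left and 40.2 on the right.

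The level of the Psmd genes also tracked the mitochondrial share from library to library. The summed Psmd level was 288, 288 and 203 in Saline, 201, 139 and 65.1 in DOX, 354, 355 and 289.9 with K35 and 262, 259.7 and 168 with K27, in FPKM. The library with the largest mitochondrial share, B4, had the lowest sum, and C1 and C2, with the smallest shares, had the highest. Saline library A3 and DOX library B1, whose shares were 61.9% and 62.2%, had sums of 203 and 201 FPKM although they belong to different groups. With the mitochondrially encoded rows left out of the scaling, 14 of 17 proteasome genes were still called higher in DOX + K35 than in DOX. What part the mitochondrial share had in the group differences of these sums and of the ratio to Psmb6 was not tested further.

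**Figure D3:**
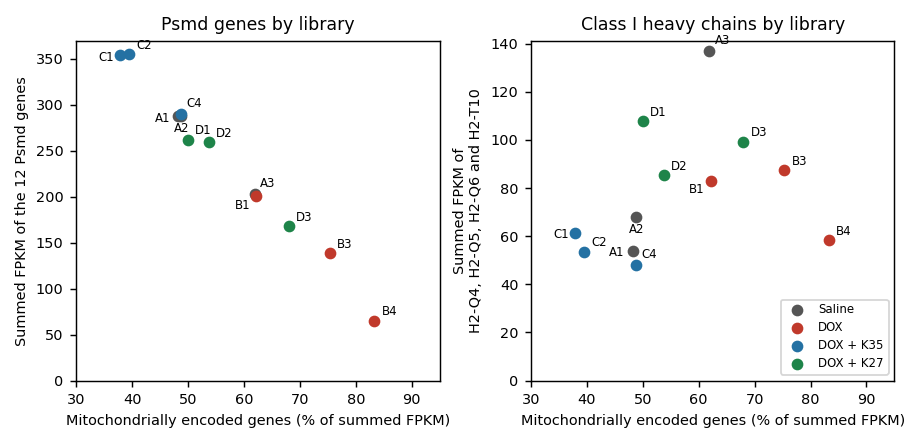
Summed FPKM of the 12 Psmd genes (left) and of H2-Q4, H2-Q5, H2-Q6 and H2-T10 (right) against the share of summed FPKM taken by mitochondrially encoded genes, 1 point a library. The left points fall from 355 FPKM in C2 to 65.1 in B4 across groups, whereas the right points run from 47.9 FPKM in C4 to 137 in A3.

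The MHC genes were described by role, beginning with the class I molecule itself. B2m (chr2:122147686-122153083), the invariant light chain of all class I molecules, was by far the most abundant member at 1718, 1998 and 3789.6 FPKM in Saline, 2082, 2152 and 1748 in DOX, 1507, 1549 and 1049 with K35 and 2369.5, 2043 and 2205 with K27. No library of the other 3 groups was as low as the highest K35 library, and the fold change against DOX, -0.56 (95% interval -1.29 to 0.17), did not pass the test. It was called lower in 3 of 20 other settings, all of which rescale the libraries. The heavy chains in the table were nonclassical or class Ib genes of the Q and T regions of chromosome 17. H2-Q4 (chr17:35379617-35385290) was at 27.98, 34.7 and 73.6 FPKM in Saline, 42.1, 42.2 and 28.1 in DOX, 30.7, 27.8 and 24.7 with K35 and 54.4, 44.9 and 48.1 with K27. H2-T10 (chr17:36115876-36121465), whose product is a ligand of some gamma delta T cells, was at 2.65, 3.39 and 6.20 FPKM in Saline, 2.88, 3.21 and 2.86 in DOX, 1.95, 1.91 and 1.48 with K35 and 3.80, 2.81 and 3.95 with K27. H2-Q5 (chr17:35394126-35397800), which GENCODE lists, like H2-T10, as a polymorphic pseudogene, was at 5.52, 7.17 and 15.9 FPKM in Saline, 11.8, 10.8 and 7.25 in DOX, 5.25, 4.45 and 5.27 with K35 and 12.3, 10.5 and 13.2 with K27. In all 3, the highest Saline value was that of A3, which made the Saline spread wide. In DOX + K35, H2-Q5 fell by 0.85 against DOX (SE 0.32, limma adjusted p = 0.033), whereas H2-T10 at -0.52 (adjusted p = 0.071), H2-Q4 at -0.40 and H2-Q6 at -0.37 did not pass the same limma test.

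These heavy chains are near-copies of other class I genes. Between 12.9% and 29.7% of the 100-base windows of the longest transcripts of H2-Q4, H2-Q5, H2-Q6 and H2-T10 occur in another gene, so that reads can be split between them. For H2-Q4 and H2-T10 the genes with the largest share, Gm11131 and BC023719, overlap them on the opposite strand. These percentages therefore also count such overlap and not only class I copies. Nlrc5 (chr8:94434356-94527272), the transactivator that drives class I genes and B2m, was at 5.14, 6.73 and 11.1 FPKM in Saline, 8.55, 7.88 and 8.32 in DOX, 3.48, 2.48 and 6.29 with K35 and 7.41, 7.98 and 9.92 with K27. The DOX libraries lay within a narrow range, and all 3 DOX + K35 libraries were below them, C4 least so. Nlrc5 fell by 0.93 (SE 0.30, limma adjusted p = 0.016), a call that was lost when C1 or C2 was left out and held under 19 others. For H2-Q5 the call was lost when B1, B3, C1 or C2 was left out.

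The regions before the gene starts of the members were examined for the letters of known elements. RefSeq promoters on GRCm38.p6 matched 21 of the 28 members, 15 proteasome and 6 MHC, and the 250 bases before each start were searched on both strands. The letters GAAA, any pair of bases and GAAA again, the core of the interferon-stimulated response element (ISRE) through which interferon acts on many class I genes, occurred in B2m and Psmd9 only, against 3.46% of all 27025 RefSeq genes. The letters CCAAT, a box found in class I and class II promoters, occurred in all 6 matched MHC genes, in 4 of 15 proteasome genes (Psmc1, Psmd14, Psme3 and Psmd10) and in 37.5% of all genes. TGACNNNGC, the core of the antioxidant response element, occurred in Psmb6, Psmd9 and H2-DMb2, against 11.5% of all genes, and TTCNNNGAA, the gamma-activated site, in H2-DMb2, against 8.13%. The stretches are shown because the 2 ISRE matches lie before B2m, which was not called, and Psmd9, which rose in DOX + K35, and because H2-Q4 and H2-Q6 carry the same box at the same distance. Letters in capitals mark the match, and all 4 stretches are read on the plus strand.
B2m, chr2:122147518-122147587: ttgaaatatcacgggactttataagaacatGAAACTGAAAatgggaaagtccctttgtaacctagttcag
Psmd9, chr5:123228001-123228070: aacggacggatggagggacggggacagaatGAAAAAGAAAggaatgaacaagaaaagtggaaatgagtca
H2-Q4, chr17:35379532-35379596: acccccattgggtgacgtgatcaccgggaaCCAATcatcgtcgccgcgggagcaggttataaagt
H2-Q6, chr17:35424765-35424829: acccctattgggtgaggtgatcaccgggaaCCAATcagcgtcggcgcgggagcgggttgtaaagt
The ISRE letters start 139 bases before the RefSeq start of B2m and 159 bases before that of Psmd9, which lies inside the longer GENCODE span of Psmd9 given above, and the box starts 55 bases before the starts of both H2-Q4 and H2-Q6. The H2-Q4 and H2-Q6 stretches of 65 bases were identical at 59 positions. A match of letters describes the sequence and does not show that a factor binds there.

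Of the 3 peptide-loading genes 2 rose in DOX + K35, where no class I heavy chain rose. Tap2 (chr17:34203527-34216321), a chain of the peptide transporter, was at 8.15, 8.28 and 11.7 FPKM in Saline, 6.49, 4.83 and 3.01 in DOX, 9.31, 7.54 and 4.61 with K35 and 9.62, 8.08 and 6.72 with K27. Tapbp (chr17:33915899-33929292), or tapasin, which bridges the transporter and the class I molecule, was at 27.3, 30.7 and 38.6 FPKM in Saline, 20.3, 14.8 and 8.73 in DOX, 34.9, 37.99 and 15.9 with K35 and 35.7, 27.6 and 19.2 with K27. Tapbpl (chr6:125223933-125231860), or TAPBPR, another peptide editor of class I, was at 8.81, 9.98 and 10.6 FPKM in Saline, 6.58, 3.84 and 1.72 in DOX, 10.7, 10.8 and 6.83 with K35 and 8.86, 7.48 and 6.28 with K27. In all 3 genes the DOX libraries were below every Saline library, and B4 was lowest. In DOX + K35, Tapbpl rose by 1.15 against DOX (SE 0.32, limma adjusted p = 0.009) and Tapbp by 0.95 (SE 0.38, limma adjusted p = 0.047). Tap2 at 0.50 did not pass (limma adjusted p = 0.16). The rise of Tapbpl was called in all 21 other settings, and that of Tapbp in 7. The Tapbp call was lost when A1, A2, B3, B4, C1, C2, D1 or D2 was left out, under each rescaling of the libraries, with the length trend removed and when only the 2 groups were fitted. Of the 100-base windows of the longest Tapbp transcript, 14% also occur in other genes, among them Gm19412 on the opposite strand. The loading genes per 100 FPKM of the 4 class I heavy chain rows, a ratio within each library, came to 82.1, 71.9 and 44.6 in Saline, 40.2, 26.8 and 23.1 in DOX, 89.2, 105 and 57.04 with K35 and 50.3, 50.6 and 32.5 with K27. No DOX library reached the lowest Saline library, and all DOX + K35 libraries were above all DOX + K27 libraries.

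The class II members were barely detected. H2-DMb2 (chr17:34143307-34151555), a chain of the DM molecule that loads peptides on class II, was at 0.856, 0.616 and 3.00 FPKM in Saline, 1.09, 1.94 and 0.967 in DOX, 0.857, 0.404 and 0.182 with K35 and 1.88, 1.34 and 1.31 with K27. All DOX + K35 libraries were below all DOX libraries, and the fold change of -0.66 did not pass (limma adjusted p = 0.069). H2-Ob, a chain of the DO molecule, had a mean of 0.993 FPKM and was left out of the test by the minimum of 1 FPKM, which H2-DMb2 passed at 1.20. H2-Ob ranged from 0.0778 FPKM in C4 to 1.96 in D3. The B cell marker Cd79b, at 1.58 to 2.81 FPKM in DOX and 0.252 to 1.33 in DOX + K35, fell by 0.81 in the same comparison (limma adjusted p = 0.026), and its part in the H2-DMb2 difference was not tested.

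In DOX livers compared with Saline, which asks what doxorubicin did, limma called none of the 17 proteasome genes and none of the 10 MHC genes. At an adjusted p under 0.05 it called 0.181% of all rows, 6 of 3317. At an unadjusted p under 0.05 it had 13 proteasome genes and 3 MHC genes, all lower, where 40.1% of all rows were lower by that measure. By the same measure 5 of the 7 hepatocyte markers were lower, with a list median of -0.89, and all 9 Kupffer cell or macrophage markers, with a list median of -1.43. The median log2 fold change was -0.91 for the proteasome genes, -0.21 for the MHC genes and -0.34 for all rows. All 17 proteasome fold changes were negative, from -1.25 to -0.24, and 7 of these genes had DOX and Saline libraries that did not overlap, all lower in DOX, where 35.3% of all rows did not overlap in either direction. The smallest p values belonged to Psmd10 at -0.99, Psmd13 at -1.25, Psmd9 at -0.94 and Psmd14 at -1.21 (limma adjusted p = 0.061 for each). Among the MHC genes, Tapbpl was at -1.22, Tapbp at -1.15 and Tap2 at -0.88 with the same adjusted p, and H2-T10 at -0.29 (limma adjusted p = 0.33). The remaining MHC fold changes lay between -0.24 for B2m and 0.15 for Nlrc5 and H2-Q5.

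Whether members were called depended on single libraries. Without A3, limma called 11 proteasome genes and 1 MHC gene lower in DOX, and without B1 it called 14 and 3, whereas without B4, the library with the lowest Psmd sum, it called none and the proteasome median was -0.58. The MHC median was -0.21 with all libraries and 0.17 without A3, and it was also positive under median-ratio scaling (0.02), with the mitochondrially encoded rows left out (0.06) and with the 20 highest rows left out (0.34), so its direction depends on these choices. The proteasome median stayed negative and below that of all rows under each of these settings. Relative to the median of all rows in its own library, on the log2(FPKM + 1) scale, the median proteasome gene was 1.35 to 1.84 higher in Saline, 0.83 to 1.25 higher in DOX, 1.75 to 2.07 higher with K35 and 1.09 to 1.64 higher with K27. By this measure the DOX libraries lay below all Saline and all DOX + K35 libraries.

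In DOX + K27 compared with DOX, limma called none of the 27 members tested, where it called 0.0603% of all rows, 2 of 3317. At an unadjusted p under 0.05 it had 9 proteasome and 3 MHC genes, all higher, against 28.0% of all rows. The medians were 0.73 for the proteasome genes, 0.30 for the MHC genes and 0.36 for all rows. The proteasome genes with the smallest p were Psmd13 at 1.16, Psmd10 at 0.74, Psmd8 at 0.95 and Psmc1 at 0.94, and the MHC genes were Tapbpl at 0.87, Tap2 at 0.70, Tapbp at 0.90 and H2-Q4 at 0.40. Every adjusted p among the members was at least 0.15 by limma. Without B1, limma called 11 proteasome genes and Tap2, Tapbp and Tapbpl higher, and without B4 it called none. The comparisons of both compounds use the same 3 DOX libraries, so a resemblance between them is not independent evidence. The MHC median turned negative under quantile normalization, with the 20 highest rows left out and with the trend on exonic length removed.

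The compounds were compared directly at the same dose and schedule. Between DOX + K35 and DOX + K27, limma called none of the 27 members at an adjusted p under 0.05, where 2.11% of all rows were called, a comparison that uses no DOX library except for the estimate of the spread. At an unadjusted p under 0.05, 3 proteasome genes were higher and 6 MHC genes lower in DOX + K35, against 14.7% and 13.6% of all rows. The medians were 0.57 for the proteasome genes, -0.71 for the MHC genes and 0.09 for all rows. Psme4 was 0.86 higher in DOX + K35 on the log2 scale (95% interval 0.17 to 1.55, limma adjusted p = 0.13), Psme3 0.60 (interval 0.04 to 1.16), Psmd9 0.65 (interval 0.01 to 1.29) and Psmd1 0.79 (interval -0.04 to 1.62). In the other direction, H2-Q5 was at -1.11 (95% interval -1.79 to -0.44, limma adjusted p = 0.072), Nlrc5 at -0.95 (interval -1.59 to -0.32), H2-T10 at -0.70 (interval -1.20 to -0.19) and H2-DMb2 at -0.78 (interval -1.41 to -0.15).

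B2m, H2-Q4, H2-Q5, H2-Q6, H2-T10 and Nlrc5 were all 6 lower in each of the K35 livers than in any of the K27 livers, as 18.9% of all rows were. Of the proteasome genes, 11 of 17 were higher in every DOX + K35 library, as 30.6% of all rows were, and Psmb6 and Psme2 were lower. For the loading genes the intervals were -0.82 to 0.43 for Tap2, -0.77 to 0.87 for Tapbp and -0.41 to 0.97 for Tapbpl. A p that misses the threshold does not show that the compounds act alike, and the proteasome intervals reach from -1.65 for Psme2 to 1.62 for Psmd1. The labels do not say that the replicate numbers are pairs, and number 3 was held only by A3 and D3, which stood apart within their groups. A fit over the 9 numbered libraries with the replicate number as a block called 13 proteasome genes higher and 2 MHC genes, H2-Q5 and Nlrc5, lower in DOX + K35. The same 9 libraries without the block gave 3 and 2. Leaving out B4 and C4, chosen after seeing the data, also gave 3 (Psmd1, Psme3 and Psme4) and 2 (H2-Q5 and Nlrc5).

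**Figure D4:**
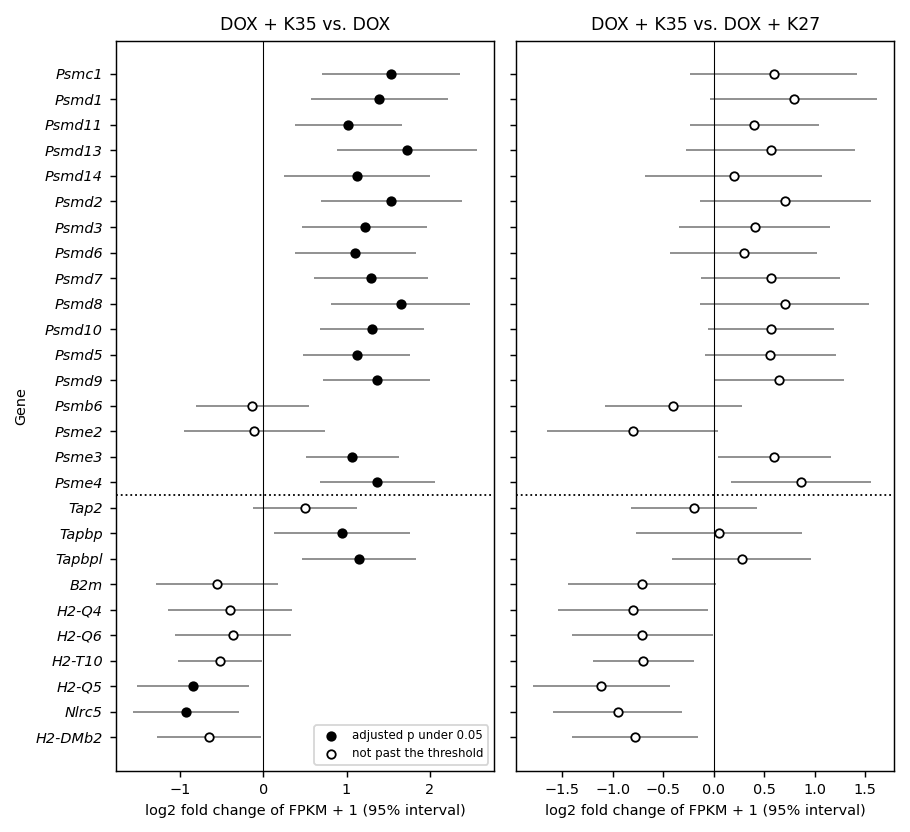
log2 fold change of each of the 27 tested genes with its 95% interval from limma, for DOX + K35 against DOX (left) and against DOX + K27 (right); filled points passed an adjusted p under 0.05, and the dotted line separates proteasome genes (above) from MHC genes. On the left 19 points are filled, and on the right none is.

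Against Saline, no member was called by limma in either treated group, where 0.181% of all rows were called for DOX + K35 and 0.121% for DOX + K27. At an unadjusted p under 0.05 by limma, DOX + K35 had 1 proteasome gene higher, 1 lower and 5 MHC genes lower, against 10.4% of all rows higher and 6.18% lower, and DOX + K27 had none, against 5.94% of all rows. The proteasome median was 0.41 in DOX + K35 and -0.12 in DOX + K27, with 0.13 and 0.00 for all rows. The MHC medians were -0.61 and 0.02. In DOX + K35, the proteasome genes past that unadjusted threshold were Psme3 at 0.62 (95% interval 0.06 to 1.18) and Psme2 at -0.88. The MHC genes past it were B2m at -0.80 (95% interval -1.54 to -0.07), H2-T10 at -0.81 (95% interval -1.32 to -0.31), H2-DMb2 at -0.65, H2-Q5 at -0.69 and Nlrc5 at -0.78. Without A3 the MHC median for DOX + K35 was -0.24. The intervals for Psmd13 were -0.36 to 1.31 in DOX + K35 and -0.93 to 0.75 in DOX + K27.

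Related genes outside the rule were taken from lists of known pathway members. Rad23b, Ubqln1 and Ubqln2, shuttle factors that bring ubiquitinated proteins to the proteasome, and Vcp, the segregase that extracts substrates, were called higher in DOX + K35 than in DOX. Their log2 fold changes were 1.14 for Rad23b, 1.78 for Ubqln1, 1.11 for Ubqln2 and 1.66 for Vcp. The small 19S subunit Sem1 at -0.31 and the stress transcription factor Nfe2l2 at -0.23 did not pass. Of 9 other peptide-loading genes, the endoplasmic reticulum chaperones Canx (1.69) and Hspa5 (1.45) were in the table and both were called higher. Of 12 class II pathway genes 4 were in the table and 3 were tested, of which Ctsd (1.65) and Lgmn (1.19), lysosomal proteases, were called higher and Ctsb (0.87) did not pass. Of the interferon signalling genes, Stat2 fell by 1.02 (limma adjusted p = 0.024), whereas Irf7 at -0.21 did not pass. In DOX + K27 against DOX, Irf7 was at 1.36 without a call, and between the compounds Irf7 was at -1.57 in DOX + K35 without a call (limma adjusted p = 0.083).

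The direction of the DOX + K35 result was examined under other scalings, since the median of all rows itself changed with them. With the 20 highest rows left out the median of all rows was -0.08, that of the proteasome genes 0.61 and that of the MHC genes -1.05, with 11 proteasome genes called higher and 6 MHC genes called lower. With the trend on exonic length removed, the proteasome median was 0.69 and the MHC median -1.03. Under each setting run, including the omission of each library in turn, the proteasome median lay above that of all rows and the MHC median below it in this comparison. Tapbpl was called higher in all of them, whereas the number of MHC genes called lower ranged from 0 to 7.

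**Figure D5:**
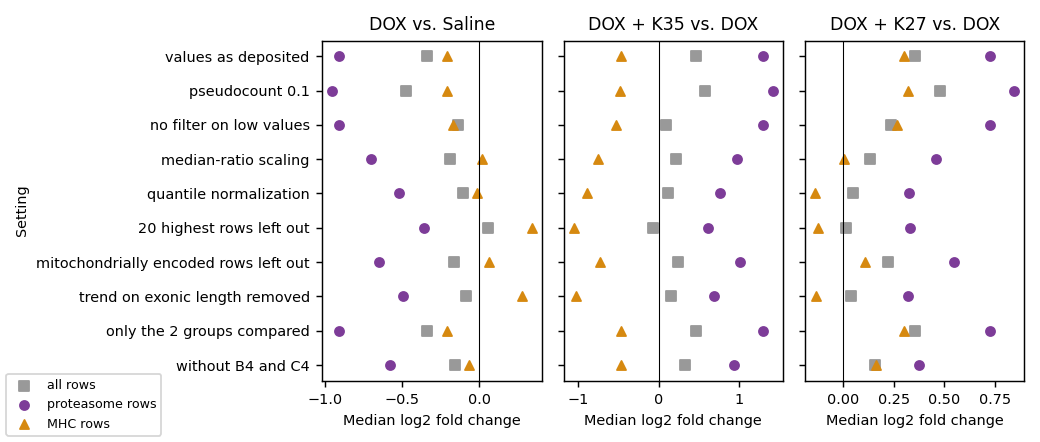
Median log2 fold change of all tested rows (squares), proteasome genes (circles) and MHC genes (triangles) under 10 ways of processing, for 3 comparisons. In DOX + K35 vs. DOX the order MHC, all rows, proteasome holds in each row, while in DOX vs. Saline the MHC median lies on either side of 0.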

How the data were processed

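Poly(A) RNA libraries of mouse liver, made with a kit that does not mark strand, were measured in 12 samples of 4 groups. The deposited table holds FPKM values that the authors computed, for 3799 genes that they selected. Its header gives no unit, so FPKM is inferred from the form of the values. HISAT2, DESeq2, edgeR and GRCm38 are named in the submitters' processing notes, and versions are not given in the sources used here. No counts are given, so depth and counting error are unknown. The labels list libraries B2 and C3 where the table has B4 and C4, and for this reason 3 columns (B3, B4, C4) carry a group but no replicate number. The labels do not say which mouse each library came from, and p-values measure only the spread between these libraries.

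Values were taken as log2(FPKM + 1). Rows averaging 1 FPKM or more, 3317 in all, entered a limma 3.58.1 (R 4.3.3) fit with 1 mean per group over all 12 libraries, and p-values were adjusted by Benjamini-Hochberg over all of them at 0.05. The fit was checked on simulated data. Tables and plots were made with pandas 2.3.3, numpy 2.4.6, scipy 1.17.1 and matplotlib 3.10.9 in Python 3.11.15. Promoters came from RefSeq on GRCm38.p6, and gene positions from GENCODE M21, which held all 28 members under the same symbol.

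Each member is named once with its role, and its value in every library is given for Psmb6 and for the up to 4 proteasome and 4 MHC genes with the smallest p in each comparison of DOX with Saline, DOX + K35 with DOX, DOX + K27 with DOX, and DOX + K35 with DOX + K27. The members and the gene lists were chosen with earlier results of these data known. Some genes of the related lists are not reported here. Deviations from the group means correlated at 0.109 to 0.474 over 10 pairs of same-numbered libraries, and at -0.679 to 0.559 over 19 pairs of different numbers. Every negative correlation involved A3 or D3, and the highest was between B1 and D2, so these values do not show that the numbers are pairs. The labels do not state a pairing. A fit with the replicate number as a block covers the 9 numbered libraries. It was made only for DOX + K35 with DOX + K27 and for DOX + K27 with Saline, and it leaves out B3, B4 and C4. Alternatives were the pseudocount (0.1), no filter, quantile normalization, scaling by median ratios, scaling without the 20 highest or the 13 mitochondrially encoded rows, fitting only the groups compared, a threshold of 0.01, the block, and each library left out in turn. Added after seeing the data were the omission of B4 and C4 together, removal of the trend on exonic length (lowess, span 0.3, length known for 94.3% of tested rows) and the 9 numbered libraries without the block.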

Additional observations from a re-analysis of the deposited data

How the results depend on the processing

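The 15 proteasome genes called higher in DOX + K35 vs. DOX became 11 to 15 under the other settings, and 14 to 15 when each library was left out in turn, with proteasome genes called lower in 2 (quantile normalization), 2 (20 highest rows left out) and 1 (length trend removed). The MHC genes called higher in that comparison, 2 as reported, were 1 under median-ratio scaling, quantile normalization, either omission of rows, the fit of 2 groups, the length trend and a threshold of 0.01, and 1 to 3 when a library was left out. The MHC genes called lower there, also 2, were 7 with median-ratio scaling, 6 with quantile normalization, 6 with the 20 highest rows left out, 5 without the mitochondrially encoded rows, 6 with the length trend removed and 0 at a threshold of 0.01. Leaving out a library gave 0 (C2) to 4 (A3). In DOX vs. Saline, proteasome genes called lower numbered 8 with median-ratio scaling, 2 with quantile normalization and 3 with the length trend removed, and 0 to 14 with a library left out. MHC genes called lower numbered 1 under median-ratio scaling, quantile normalization, the 20 highest rows left out and the length trend, and 0 to 3 with a library left out. In DOX + K27 vs. DOX, leaving out a library gave 0 to 11 proteasome and 0 to 3 MHC genes called higher, the highest without B1. Between DOX + K35 and DOX + K27, the replicate block gave 13 proteasome genes higher, the numbered libraries without it 3, and the omission of B4 and C4 3, while leaving out single libraries gave 0. MHC genes lower numbered 1 under median-ratio scaling, quantile normalization, the omission of mitochondrial rows and the fit of 2 groups, and 2 with the 20 highest rows left out, the block, the numbered libraries without it, the length trend and without B4 and C4. Leaving out single libraries gave 0 to 2. The cause of these differences was not tested. The block changed no call in DOX + K27 vs. Saline. With 3 libraries a group and unknown depth, small differences were not detectable.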
